A study of Homo sapiens with 2 samples.

Results

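Of the molecular chaperones and cochaperones of human cells, 52 genes were followed in RNA of MM.1S, a human multiple myeloma line that grows as plasma-cell-like tumour cells. The genes belong to the HSP90, HSP70, HSP110, HSP40, small HSP, chaperonin and BAG families with the heat shock factors. A gene was measured if at least 1 probe set was annotated to its symbol and to no other. By this rule 46 of the 52 genes were measured, by 105 of the 54675 probe sets on the array. HSPA1A, HSPA1B, HSPA8 and TCP1 have probe sets that the annotation assigns to several symbols, and AHSA1 and HSF2 have no entry in the annotation used, so these 6 genes were not analysed here. HSPB11 is annotated under its current symbol IFT25 and was matched through its synonym. The set is not purely cytosolic: TRAP1, HSPA9, HSPD1, HSPE1 and DNAJA3 act in mitochondria, and DNAJB12, DNAJB14 and HSPA13 are tied to the endoplasmic reticulum.

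Total RNA was hybridised to Affymetrix HG-U133 Plus 2.0 arrays, 1 for MM.1S cells cultured with plasmacytoid dendritic cells (pDCs, the dendritic cells known for type I interferon) and 1 for MM.1S cells cultured alone. Both groups are the same cell line and differ in the labels only by the presence of pDCs. The sources used here do not give where the pDCs came from, how many were added, how long the culture lasted, or whether the cells were separated before RNA extraction. With n = 1 per group there is no replicate error, no test and no p-value, and "higher" and "lower" describe these 2 arrays. In such bulk RNA, fewer cells of a type and less RNA per cell cannot be told apart. The series asks how pDCs affect growth and drug resistance of myeloma cells.

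Chaperones bind unfolded proteins and release them for folding. HSP70 works in cycles that HSP40 proteins start and that nucleotide exchange factors of the BAG and HSP110 families end, and HSP90 then takes over clients such as kinases and steroid receptors with the help of its own cochaperones. The ring-shaped chaperonins enclose their clients, actin and tubulin in the case of CCT and matrix proteins in the case of mitochondrial HSP60. Heat shock factor HSF1 raises many of these genes under protein stress by binding repeats of the unit GAA in their promoters. Plasma cells make large amounts of antibody, and myeloma cells are known to depend on this folding capacity.

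The binding pattern of heat shock factors was searched in promoters because it joins members of different families. The motif has 3 alternating units with 2 free bases between them (GAA, NN, TTC, NN, GAA, or TTC, NN, GAA, NN, TTC on the other strand) and was sought within 250 bases before and 50 after the start sites in the RefSeq promoter table (GRCh38.p14). It occurred in 7 of 47 listed genes with a promoter in the table (14.9%) and in 0.608% of all 27305 genes there. The shorter motif of 2 units, GAANNTTC or TTCNNGAA, which is contained in the longer one, occurred in 19 of the 47 (40.4%) and in 16.2% of all genes. The genes with 3 units were HSP90AA1, HSP90AB1, HSPA6, HSPA8, HSPD1, DNAJA1 and DNAJB6. The stretches below hold the motif in 5 measured genes, with the matched bases in capitals, and are shown since the arrays gave these genes different ratios.
DNAJB6: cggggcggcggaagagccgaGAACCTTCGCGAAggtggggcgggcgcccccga
HSP90AB1: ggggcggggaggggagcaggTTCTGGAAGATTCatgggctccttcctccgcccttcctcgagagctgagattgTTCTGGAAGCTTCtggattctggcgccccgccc
HSP90AA1: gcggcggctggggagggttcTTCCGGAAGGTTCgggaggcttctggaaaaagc
HSPD1: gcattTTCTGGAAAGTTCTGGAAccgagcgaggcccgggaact
HSPA6: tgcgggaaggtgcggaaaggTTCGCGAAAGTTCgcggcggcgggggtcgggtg

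The DNAJB6 stretch lies at chr7:157336853-157336905 on the plus strand, and its match begins 131 bases before the start site. The HSP90AB1 stretch, at chr6:44247758-44247863 on the plus strand, holds 2 matches that begin 165 and 112 bases before the start. The HSP90AA1 stretch is at chr14:102087100-102087152 on the minus strand, with the match 88 bases before the start. The HSPD1 stretch, at chr2:197500048-197500090 on the minus strand, begins at the edge of the table and has 2 overlapping matches, 245 and 240 bases before the start. The HSPA6 stretch is at chr1:161524446-161524498 on the plus strand, with the match 74 bases before the start. In DNAJA1 the match begins at base 4 after the start. A match describes letters in this window and is not evidence of binding.

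Signals of most chaperones on their brightest probe sets differed little between the arrays. Each gene was represented by its brightest probe set, signals under the median signal of an array (116 with pDCs and 124 alone) were set to that floor, and ratios are log2 values of co-culture minus alone. Of the 46 measured genes, 44 exceeded the floor on both arrays, HSPA6 did so on the array of MM.1S cells alone, and HSPA2, the testis-enriched HSP70, was below the floor on both (18.0 with pDCs and 57.1 alone). Over the 45 genes with a ratio, 23 were positive and 22 negative, with a median of 0.02 (25 and 20 after loess), and over all 14408 genes above the floor the median was -0.03 with 46.7% positive. DNAJB6 was the only member at least 2-fold higher, against 3.16% of all genes, and 0 members were shown to be at least 2-fold lower, against 4.51% of all genes. HSPA6 was counted by its bound of at least 1.66-fold lower, which does not show whether it passed 2-fold. At 1.5-fold, 2 members were higher (DNAJB6 and DNAJB5; 11.5% of all genes) and 4 were lower (DNAJA2, FKBP4, HSPA6 and HSPA4L; 15.3% of all genes). The remaining 39 of 45 lay within 1.5-fold. The members were brighter than the genes they are set against. Their median signals were 3066 with pDCs and 3385 alone, against 523 and 535 for all genes above the floor. The part of signal strength in these shares was not tested.

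**Figure D1:**
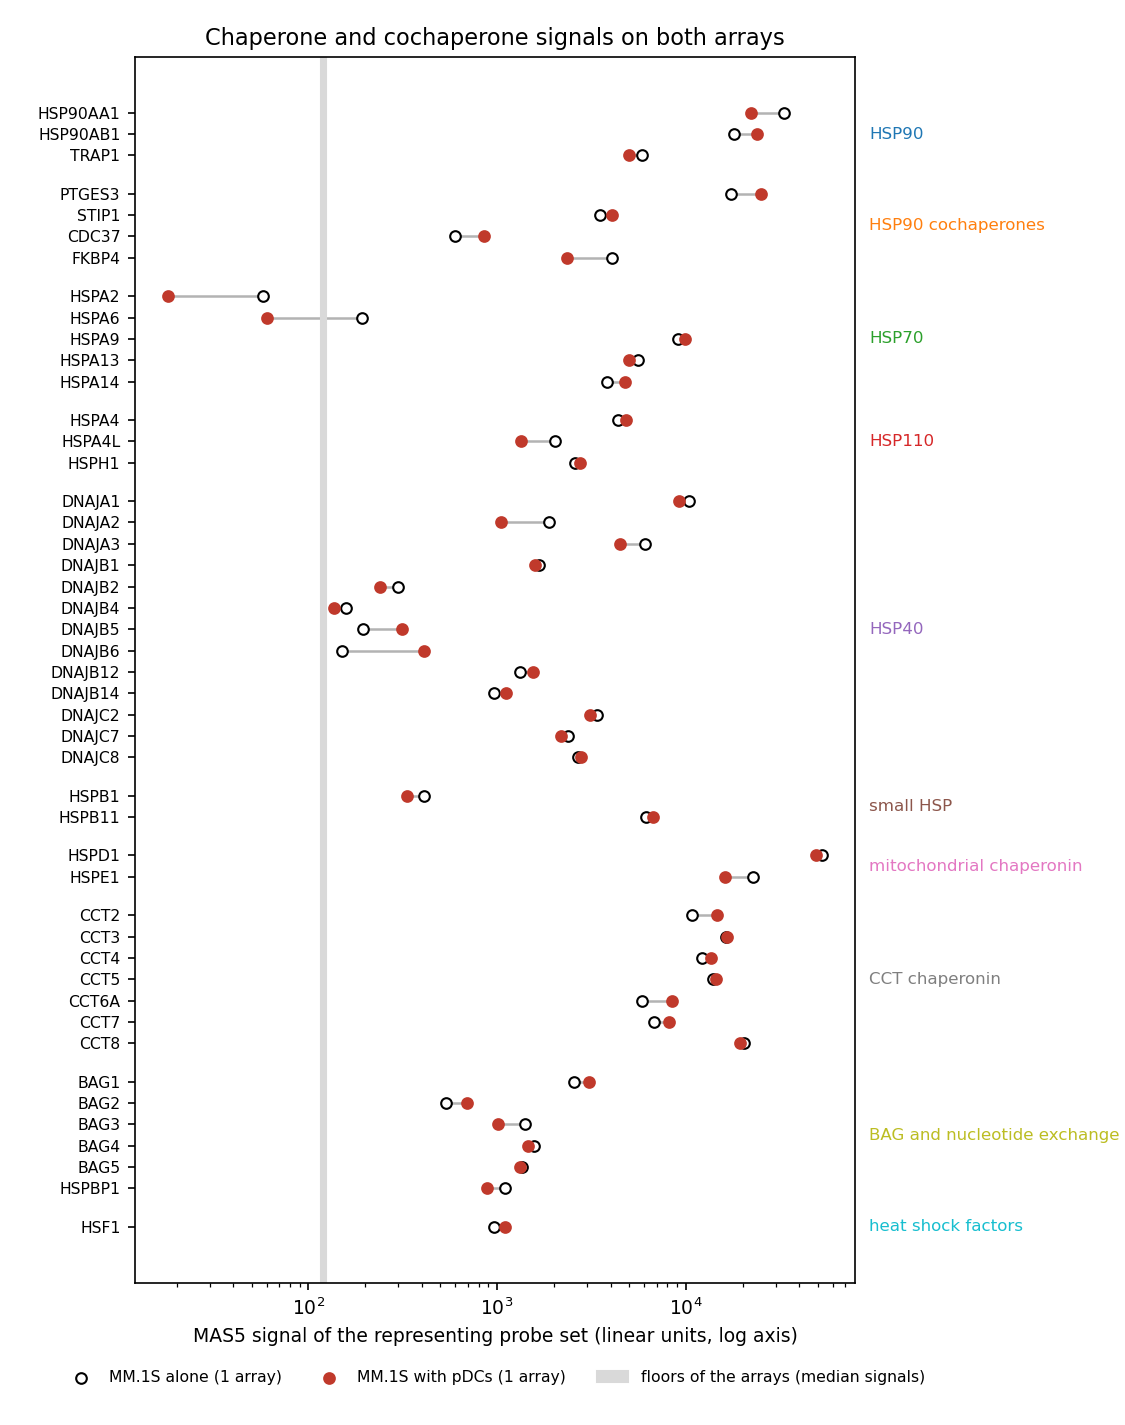
MAS5 signals (linear units on a log axis) of the representing probe set of 46 chaperone and cochaperone genes, by family, with 1 array of MM.1S cells with pDCs (filled) and 1 array of MM.1S cells alone (open). The points of most genes lie close together. DNAJB6 is the gene with the widest gap to the right, at 412 with pDCs and 152 alone, and the grey band marks the floors. HSPA6, at 60.4 with pDCs and 193 alone, and HSPA2, at 18.0 and 57.1, have wider gaps to the left, with signals below a floor.

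The HSP90 chaperones themselves went in different directions on their brightest probe sets. HSP90AB1, the constitutive cytosolic isoform, had a signal of 23837 with pDCs and 17999 alone on its brightest probe set, a log2 ratio of 0.41. Its other 2 probe sets were also higher in co-culture, 13590.1 against 6728 and 1661 against 791, with log2 ratios of 1.01 and 1.07. All HSP90AB1 probe sets were thus on the same side. HSP90AA1, the stress-inducible isoform, had 22188 with pDCs and 33003 alone on its brightest probe set, a log2 ratio of -0.57. The other HSP90AA1 probe sets had signals of 24929 against 23176, 16749 against 14651 and 10636 against 5214. Their log2 ratios were 0.11, 0.19 and 1.03, so the probe sets of HSP90AA1 gave both directions and no single value stands for the gene. TRAP1, the mitochondrial HSP90, had 5000.4 with pDCs and 5865 alone, a log2 ratio of -0.23.

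Among the HSP90 cochaperones, 3 of 4 measured genes had a positive ratio (46.7% of all genes) and the median log2 ratio was 0.37. PTGES3, known as p23, which stabilises the closed form of HSP90, had 25003 with pDCs and 17393 alone, a log2 ratio of 0.52. CDC37, which brings kinases to HSP90, also had 0.52, from 853 against 596. STIP1, which holds HSP70 and HSP90 together during client transfer, had 4088 against 3502 on its brightest probe set, a log2 ratio of 0.22, and 0.67 on the other. FKBP4, an immunophilin of steroid receptor complexes, was the exception at 2359 with pDCs against 4067 alone, a log2 ratio of -0.79. Its next probe set was almost level, at 977 against 999.8 (log2 ratio -0.03), and another, below the floor alone, had a bound of 0.01.

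HSP70 proteins outside the multi-symbol probe sets showed small and mixed ratios. HSPA14, which forms the ribosome-associated complex with DNAJC2, had 4777 with pDCs and 3833 alone, a log2 ratio of 0.32. Its 2 other probe sets had ratios of -0.26 and -0.17, and DNAJC2 itself had -0.13 (3093 against 3385). HSPA9 (mortalin), the HSP70 that pulls proteins into mitochondria, had 9942 against 9058 and a log2 ratio of 0.13. Ratios of 0.40 and -0.26 came from 2 other HSPA9 probe sets, and a bound of -0.31 from the last. HSPA13 had 5012 with pDCs and 5603 alone, with log2 ratios of -0.16 and -0.25 on its probe sets. HSPA6, an HSP70 that is strictly inducible by stress, was at 60.4 with pDCs and 193 alone and was at least 1.66-fold lower, while its other probe set, at 35.4 against 128, gave a bound of at least 1.11-fold lower. Both HSPA6 probe sets were below the floor in co-culture, so both values are bounds.

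The HSP110 proteins, which exchange nucleotide on HSP70, included the probe set with the widest ratio of the whole set. HSPA4 had 4848 with pDCs and 4387 alone on its brightest probe set, a log2 ratio of 0.14, and its 3 other probe sets had 0.40, 0.30 and 1.01. HSPH1 (HSP105) had 2737 against 2574, a log2 ratio of 0.09. A further HSPH1 probe set of the x_at class, a class that can bind several transcripts, had 771 with pDCs and 116 alone and was at least 6.22-fold higher. The third HSPH1 probe set had 261 against 263 and a log2 ratio of -0.01, so this difference was seen on 1 of 3 probe sets. HSPA4L had 1342 with pDCs and 2019 alone, a log2 ratio of -0.59, and 0.14 on its other probe set.

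HSP40 proteins (J-domain proteins), which hand clients to HSP70 and start its ATP hydrolysis, spanned the widest range of gene ratios, from -0.83 to 1.44. Of 13 genes, 5 were positive (46.7% of all genes) and 8 negative, with a median of -0.12. DNAJB6, which keeps polyglutamine and other aggregation-prone proteins soluble, had 412 with pDCs and 152 alone and was 2.72-fold higher on the only probe set used for it. With the floor raised to the 70th percentile of the signals, the log2 ratio of DNAJB6 was bounded at 0.52 instead of 1.44. DNAJB5 had 315 against 196, a log2 ratio of 0.69, and DNAJB4, a close relative, had 136 against 159 and -0.23. DNAJB1, the classical partner of inducible HSP70 in disaggregation, had 1597 with pDCs and 1674 alone, a log2 ratio of -0.07, and -0.23 on its other probe set.

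The class A proteins of this family were on the lower side on their brightest probe sets. DNAJA2 had 1055 with pDCs and 1881 alone, a log2 ratio of -0.83, and -0.31 on its other probe set. The mitochondrial DNAJA3 had 4484 against 6091, a log2 ratio of -0.44, and -0.34 on the other. DNAJA1 had 9244 against 10448, a log2 ratio of -0.18, but 0.38 on the other probe set. The membrane-anchored DNAJB12 was positive on all 4 of its probe sets, from 0.22 to 0.90. Its relative DNAJB14 had log2 ratios of 0.22 and -0.12 and a bound of 0.98. Log2 ratios of DNAJB2, DNAJC7, which binds both HSP70 and HSP90, and DNAJC8 were -0.33, -0.12 and 0.07.

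The small HSPs were measured by HSPB1 (HSP27), which holds unfolded proteins without ATP, and by HSPB11, which works in ciliary transport. HSPB1 had 331 with pDCs and 409 alone, a log2 ratio of -0.30. HSPB11 had 6715 against 6162, a log2 ratio of 0.12, and 0.26 on another probe set.

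**Figure D2:**
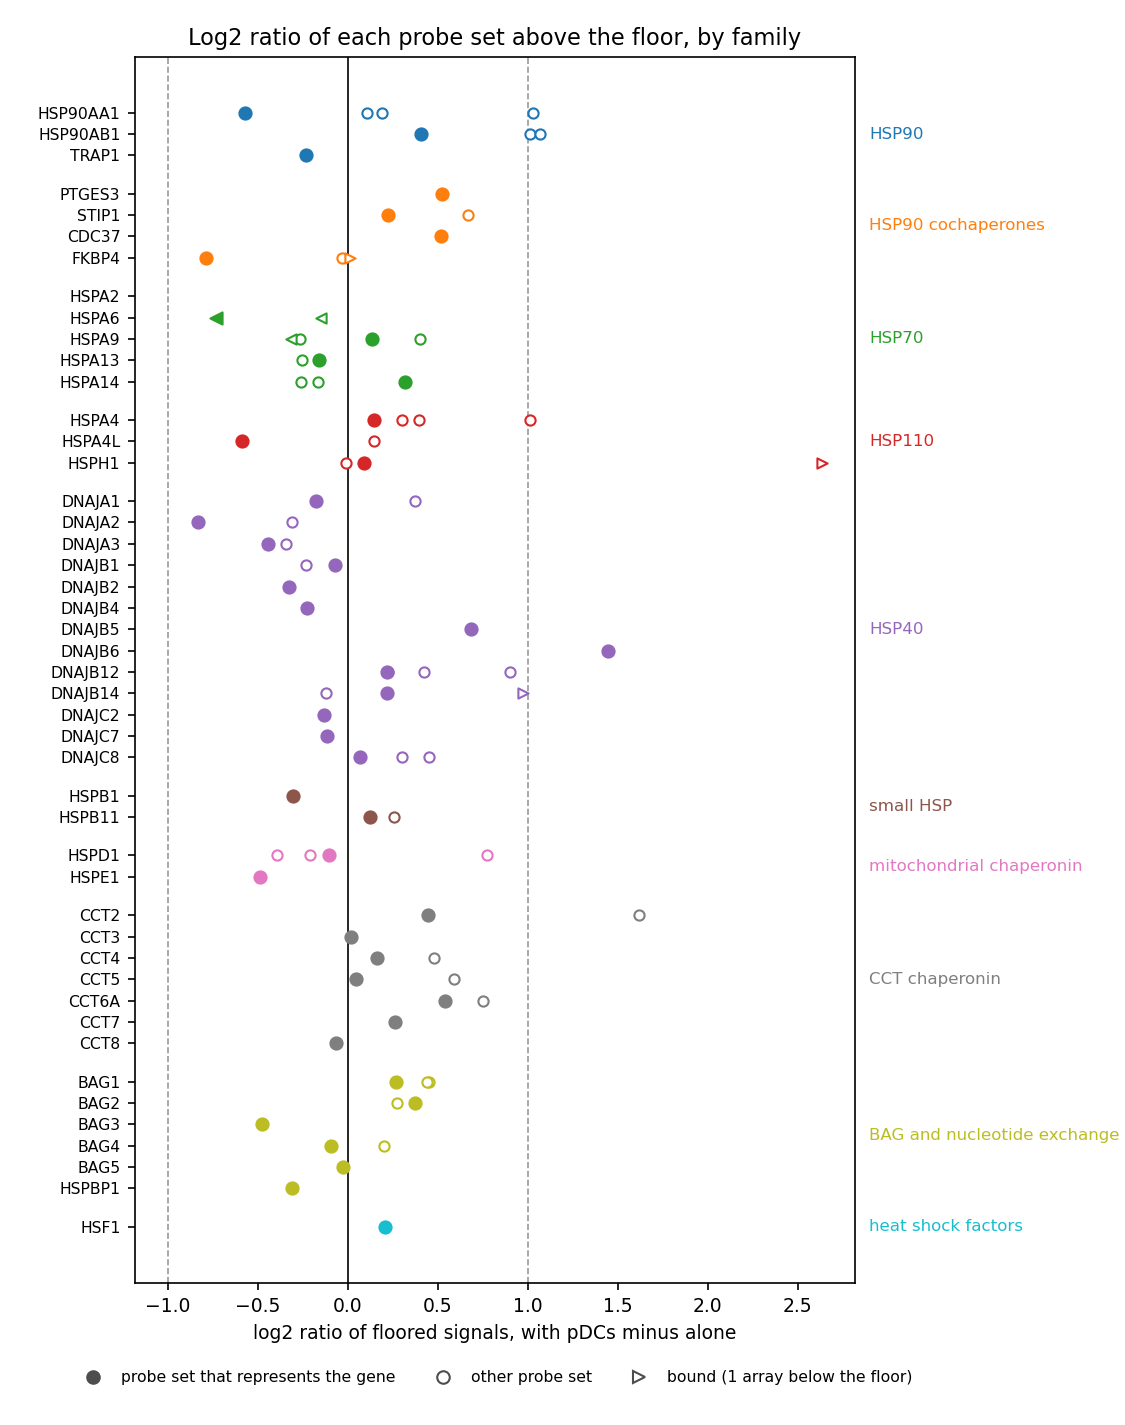
Log2 ratio of signals (co-culture minus alone, after the floor) for each of the 89 probe sets of the chaperone genes above the floor on at least 1 array, by family, with the representing probe set filled, other probe sets open and triangles for bounds. Dashed lines mark 2-fold; 7 probe sets lie at or beyond the right line and 0 at or beyond the left.

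The cytosolic chaperonin CCT (TRiC), a ring of related subunits that folds actin and tubulin, was mostly on the higher side by small margins. Ratios were positive for 6 of the 7 measured subunits (46.7% of all genes), with a median log2 ratio of 0.16, and negative for 1. CCT6A had 8488 with pDCs and 5841 alone, a log2 ratio of 0.54, and 0.75 on its other probe set. CCT2 had 14633 against 10756, a log2 ratio of 0.44, and its other probe set, at 5918 against 1931, was 3.06-fold higher. CCT7 had 8102 against 6757 and 0.26, and CCT4 had 13562 against 12137 and 0.16, with 0.48 on its other probe set. CCT5 (14380 against 13930.2) and CCT3 (16620.5 against 16420.1) were almost level, with log2 ratios of 0.05 and 0.02, though the other CCT5 probe set had 0.59. CCT8, at 19452 against 20388, had -0.07, which became 0.03 after a loess fit. None of the 7 brightest probe sets reached 1.5-fold.

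The mitochondrial chaperonin, HSPD1 (HSP60) with its lid HSPE1 (HSP10), was lower for HSPE1 and gave both directions for HSPD1. HSPE1 had 16118 with pDCs and 22589 alone, a log2 ratio of -0.49, on a single probe set. HSPD1 had 49261 against 52899.5 on its brightest probe set, a log2 ratio of -0.10 that turned to 0.04 after loess and 0.004 after quantile normalization. The next HSPD1 probe set had 23624 against 13792 and a log2 ratio of 0.78, while 2 dimmer ones had -0.39 and -0.21. Counting probe sets above both floors, HSPD1 and HSP90AA1 had values on both sides of 0 by at least 0.3, which is 2 of 26 genes with several such probe sets (7.69%, against 17.3% of all such genes). HSPA9 joins them if its bound is counted.

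BAG proteins, which release clients from HSP70, were split. BAG1, which links HSP70 to the proteasome, had 3066 with pDCs and 2542 alone, a log2 ratio of 0.27, with 0.45 and 0.44 on its other probe sets. BAG2, an inhibitor of the ubiquitin ligase CHIP, had 690.3 against 533 and 0.37, with 0.27 on the other. BAG3, the stress-induced member that routes clients to autophagy, was lower at 1014 against 1409, a log2 ratio of -0.47. BAG4 had -0.09 on its brightest probe set and 0.20 on another, and BAG5 had -0.03. HSPBP1, a further exchange factor of HSP70, had 886 against 1096 and -0.31. HSF1, the regulator of the heat shock response, had 1106 with pDCs and 959 alone, a log2 ratio of 0.21.

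Genes with a heat shock motif in the promoter did not share a direction. Of 6 measured genes with 3 units, 2 had a positive ratio on the brightest probe set (46.7% of all genes). Their log2 ratios ran from -0.73 (a bound, HSPA6) to 1.44 (DNAJB6) with a median of -0.14. Among the negative ones, HSP90AA1, DNAJA1 and HSPD1 had probe sets on both sides of 0, so this count depends on the probe set. The 9 genes with 2 units but not 3 had a median of 0.13, and the 25 with neither motif had a median of 0.02. A list of 24 genes known to be induced by heat shock, 18 of them also in the set above, gave 17 genes with a ratio, 4 positive and 13 negative, where all genes had 46.7% positive. Of these 17, 0 passed 2-fold in either direction with bounds taken at their value, against 3.16% of all genes higher and 4.51% lower. The median of this list was -0.21 on the brightest probe sets and 0.06 with the mean over each gene's probe sets, including those under the floor. With the second brightest probe set the median was 0.04, from 8 positive and 8 negative genes. Without x_at and s_at probe sets it was -0.10, from 4 positive and 6 negative genes. The lower side of this list thus depends on the choice of probe set.

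**Figure D3:**
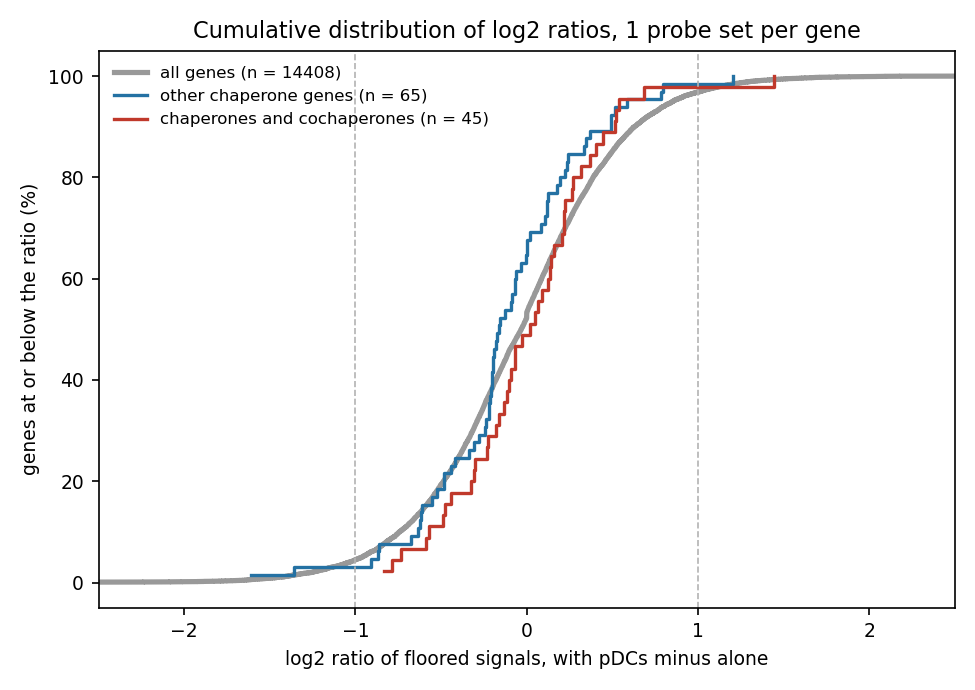
Cumulative share of genes (%) by log2 ratio, with 1 probe set per gene, for all 14408 genes above the floor (grey), 65 other chaperone genes (blue) and the 45 chaperones and cochaperones (red). The red curve starts at -0.83, inside the left 2-fold line, and only DNAJB6 lies beyond the right line; the blue curve crosses its midpoint at -0.16.

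Other genes of the chaperone network, from a list of 78 further cochaperones, J-domain proteins, small HSPs, prefoldins and mitochondrial proteases, had a median log2 ratio of -0.16. Of 65 genes above the floor, 23 were positive and 42 negative, where all genes had 46.7% positive. Of the 65, 1 was at least 2-fold higher (3.16% of all genes) and 2 were at least 2-fold lower (4.51% of all genes). DNAJC13, which acts in endosome traffic, had 1386 with pDCs and 600.1 alone and was 2.31-fold higher. DNAJC12, a partner of aromatic amino acid hydroxylases, had 159 with pDCs and 486 alone and was 3.05-fold lower, with a log2 ratio of -0.94 and a bound of -1.80 on its other probe sets. DNAJA4, at 61.0 with pDCs and 298 alone, was under the floor in co-culture and at least 2.57-fold lower, but its next probe set was almost level, at 127 against 125 (log2 ratio 0.03), and another, at 21.1 against 135, was at least 1.16-fold lower. Prefoldin passes new actin and tubulin chains to CCT, and 3 of 7 measured prefoldin and CCT cofactor genes were positive, with a median of -0.17.

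Dimmer probe sets of the chaperone genes tended to higher ratios than the brightest one. In 26 genes, at least 2 probe sets exceeded both floors, and the dimmest had the higher ratio in 18 (69.2%), with a median difference of 0.25 (log2). Over all 4844 such genes on the array the share was 53.2% and the median difference 0.05. Among the 26, all probe sets were positive in 12 genes (46.2%, against 24.9% of all genes) and all negative in 5 (19.2%, against 24.1%). Over single probe sets, 7 of 89 above the floor were at least 2-fold higher (7.87%, against 4.19% of all probe sets with 1 symbol) and 0 were at least 2-fold lower (4.67% of all). At 1.5-fold the counts were 14 higher (13.9% of all) and 4 lower (15.2% of all). Bounds, among them those of both HSPA6 probe sets, were counted at their value. The 7 at 2-fold belong to HSP90AA1, HSP90AB1, HSPA4, HSPH1, DNAJB6 and CCT2, with 2 from HSP90AB1. RNA quality differed between the arrays in the same comparison: control signals at the 3' end over those at the 5' end gave 8.09 with pDCs and 19.5 alone for ACTB, and 2.46 and 3.07 for GAPDH. Where each probe set lies along its transcript was not used here, and the part of RNA quality in these ratios was not tested.

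**Figure D4:**
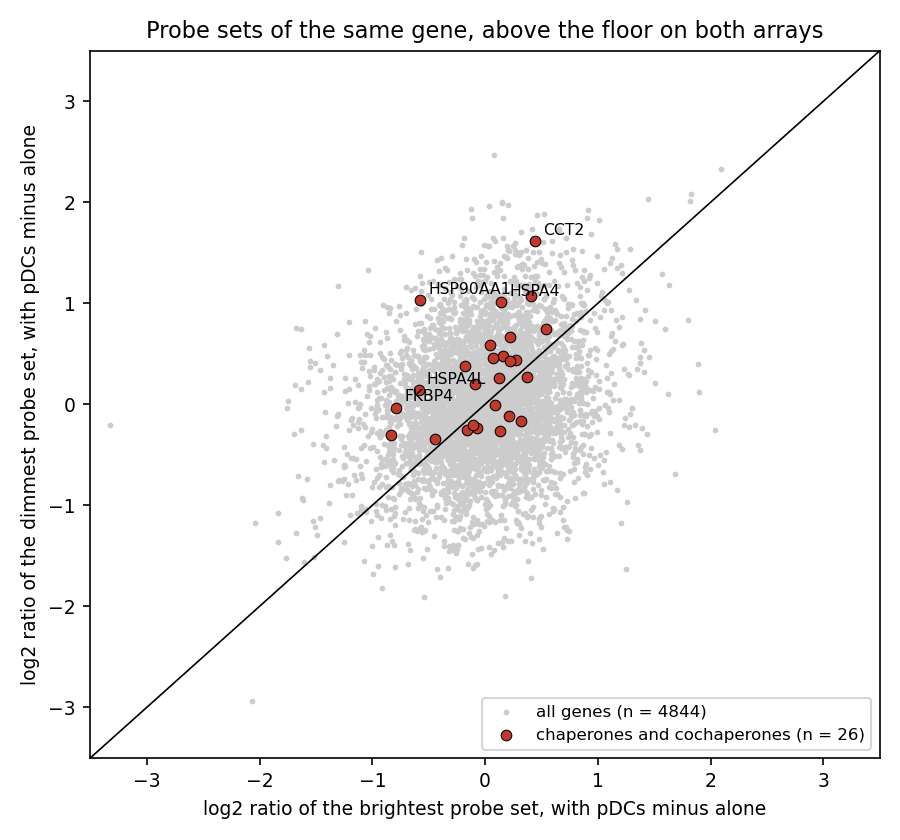
Log2 ratio (co-culture minus alone) of the dimmest against the brightest probe set of the same gene, both above the floor on both arrays, for all 4844 genes (grey) and 26 chaperone genes (red), with the line of equal values. Of the red points, 18 lie above the line, and HSP90AA1 is the farthest above it, at -0.57 on its brightest and 1.03 on its dimmest probe set.

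Markers of the cell types were checked on the same arrays. Of 10 plasma cell markers, 9 were above the floor with pDCs and 10 alone, and their summed signal was 163092 and 195009. Of 15 pDC markers, 9 were above it with pDCs and 10 alone, with sums of 31035 and 23767. Without LAMP5 (19601 with pDCs and 9053 alone), which MM.1S cells alone also showed, the other 14 summed to 11434 and 14714. Most of that remaining sum came from TCF4 (3569 with pDCs and 4400 alone) and BLNK (4872 and 5937), also shown by MM.1S cells alone. TLR7 (213 and 96.2, above the floor only with pDCs) and LILRA4 (306 and 256) were higher with pDCs. BLNK, GZMB, IRF7, NRP1, PACSIN1, PTCRA, TCF4 and TLR9 were lower. The defining CLEC4C and IL3RA were below the floor on both arrays. Of 7 measured monocyte markers, 3 and 4 were above it (sums 555 and 1477), and of 8 T cell markers, 3 and 3 (sums 6384 and 4535). Without CD28 and TRAT1 the other 6 T cell markers summed to 311 and 323, with CD3D, CD3E, CD2, CD4 and CD8A below the floor on both arrays. The part of other cells in the chaperone ratios was not tested.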

How the data were processed

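The authors deposited a linear intensity for each probe set on each array, computed, per the submitters' processing notes, with MAS5. The sources used here give neither its version nor detection calls. Judged by the values, both arrays were scaled to a common mean of 500.1 after trimming 2% at each end, which would hide a change shared by most transcripts. Groups were taken from the sample titles. Probe sets were named through the platform annotation, with identifiers matched to RefSeq (GRCh38.p14). Of 54675 probe sets, 41091 had 1 symbol, which gave 19775 genes. The probe set brightest over both arrays (mean of log2 signals) stood for its gene. Signals under the median of their array were set to it. A ratio with 1 array under this floor is a bound, and with both under it no ratio was made. With 1 array per group, no test was run, 2-fold served as a threshold of size, and precision is limited by the number of arrays. The calculation was tested on simulated data, with changes larger than 2-fold put only into bright genes and with little noise. That test checks the arithmetic and does not measure how reliable a 2-fold difference near the floor is.

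Every member was described. Those named with both signals were genes past 2-fold, the 3 brightest, those with probe sets on both sides of 0 by 0.3, and the highest and lowest of each family; other members were added for their role after their values were seen. Of the other chaperone genes, those past 2-fold were named. The members and lists were chosen with earlier results of these data known. Alternatives were median centring, quantile normalization, loess (span 0.3), no floor or one at the 30th or 70th percentile, the mean of all probe sets, the second brightest probe set, leaving out x_at and s_at probe sets, and 1.5-fold and 3-fold thresholds. Software was Python 3.11.15 with pandas 2.3.3, numpy 2.4.6, statsmodels 0.14.6, scipy 1.17.1 and, for figures, matplotlib 3.10.9.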

Additional observations from a re-analysis of the deposited data

How the results depend on the processing

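Of 172 values of counts and medians recomputed under the 11 alternatives, 135 stayed within 1.5 times (counts) or 0.2 log2 (medians) and 37 moved; none of the 37 came from the 3 other scalings. With the floor at the 30th percentile, 1 member (HSPA6) and 2 member probe sets were at least 2-fold lower, as were 4 other chaperone genes, and 4 other chaperone genes were higher (10.9% of all genes were lower and 8.57% higher). With no floor, 2 members, 5 member probe sets and 5 other chaperone genes were lower and 5 other genes higher (14.0% and 12.0% of all genes). With the floor at the 70th percentile, 0 members were higher (1.90% of all genes) and 0 other chaperone genes lower (2.03%). With the mean over probe sets, 2 members (DNAJB6 and CCT2) and 0 other genes were higher (3.75% of all genes). The medians were 0.25 for HSP90, 0.46 for HSP110, -0.66 for the mitochondrial chaperonin and 0.57 for HSF1. This mean also took in probe sets below the floor on both arrays. The HSP90 median was the value of TRAP1, where such a probe set had 10.7 with pDCs and 6.43 alone. In HSPD1 such a probe set had 1.23 and 22.9, and in HSF1 37.8 and 19.7. With the second brightest probe set, 4 of 37 members (DNAJB6, CCT2, HSP90AB1 and HSPH1) and 0 other genes were higher (4.22% of all genes). Medians were then 0.26 over all members, 0.56 for HSP90, 0.40 for HSP110, 0.14 for the mitochondrial chaperonin, 0.53 for CCT and 0.20 for BAG genes, and the log2 ratio of DNAJA4 turned from -1.36 to 0.026. Without x_at and s_at probe sets, 1 member (3.58% of all genes) and 2 member probe sets were higher. Medians were 0.22 for HSP40 and 0.37 for BAG genes. At 1.5-fold, 2 members and 14 member probe sets were higher and 4 and 4 lower, as were 3 and 10 other chaperone genes. Of all genes, 11.5% were higher and 15.3% lower at that threshold. At 3-fold, 0 members, 2 member probe sets and 0 other genes were higher (0.444% of all genes) and 1 other gene lower (0.659%). The cause of these shifts was not tested. Under at least 1 of the 3 other choices of probe sets, the median changed sign for HSP90, HSP110 (-0.007 without x_at and s_at), HSP40, the mitochondrial chaperonin, BAG genes, the heat shock induced list and 3 of the lists of other chaperone genes. With 1 array per group, no difference has an error, and signals near the floor give bounds only. No paired analysis was possible because each group has 1 array.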

Other observations

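Mitochondrial chaperones and proteases, a group put together after its values were seen, lay mostly on the lower side. Of 20 genes, 5 of them also in the chaperone set, 18 were above the floor, 4 with a positive and 14 with a negative log2 ratio, and the median was -0.18, where all genes had a median of -0.03 and 46.7% positive. The protease HTRA2, which also acts in cell death, had a signal of 1632 with pDCs and 2489 alone. LONP1, the matrix protease that degrades oxidised proteins, had 6088 against 8494. GRPEL1, the exchange factor of HSPA9, had 1900.3 against 2213. The positive members were AFG3L2, an inner membrane protease, at 8769 against 6960.2 (log2 ratio 0.33), DNAJC11 at 0.24, HSPA9 at 0.13 and CLPB at 0.12. The median stayed negative under each alternative, from -0.27 to -0.01, the last with the second brightest probe set, where 7 of 15 genes were positive. Since the group was formed with these values known, its sign counts and medians describe the 2 arrays and do not test a direction. On the brightest probe sets 0 of the 18 passed 2-fold, against 3.16% of all genes higher and 4.51% lower.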
